A study of Mus musculus with 16 samples.

Results

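Of the 50600 gene identifiers in the count table, 8 were taken as the inflammasome and gasdermin genes by their symbols: the sensor genes Nlrp3 and Nlrp10, the adaptor gene Pycard, the caspase genes Casp1 and Casp4, and the gasdermin genes Gsdma, Gsdmc and Gsdmd. All 8 were present and passed the minimum count. An inflammasome is a protein complex in which a sensor recruits the adaptor ASC, encoded by Pycard, which brings together caspase-1 molecules so that they activate each other. Active caspase-1 matures the cytokines IL-1β and IL-18 and cleaves gasdermin D, whose freed part forms pores in the plasma membrane and can end in a lytic death called pyroptosis. Caspase-11, encoded by Casp4 in the mouse, senses bacterial lipopolysaccharide inside the cell and cleaves gasdermin D directly. In the skin, gasdermin A and gasdermin C are made mainly by epithelial cells, whereas Nlrp3 is best known from myeloid cells, in which inflammatory signals raise its mRNA.

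The cells were epidermal cells of the footpad from 16 female C57/B6J mice, 1 library per mouse and 4 mice in each of 4 groups. From 5 wk of age all mice ate a purified diet for 3 wk, either without an added source of ligands for the aryl hydrocarbon receptor, AhR (AhR-poor diet, labelled SYNTH), or with indole-3-carbinol at 200 ppm as that source (I3C diet). Footpads were then injected with 50 μl of PBS (vehicle), to which 50 μg of the allergenic protease papain was added for the papain groups. Cells were taken 6 hr later, the epidermis was lifted off with dispase, and dead cells were depleted. Mice of 1 diet were housed together, so diet and cage cannot be told apart, and the labels do not say which of the 3 sequencing units read which library. Library totals ran from 22500821 to 51844375 counts, and levels are in CPM, the read count of a gene relative to its library's total, which is first adjusted by a TMM factor (0.937 to 1.07) that corrects for differences in composition. The 6 keratinocyte markers summed to between 37139 and 60901 CPM in every library and none of them was called in any comparison. A gene was called at an adjusted p below 0.01 together with a log2 fold change beyond 1 in either direction.

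In GRCm38 with the GENCODE M21 annotation, all 8 were protein-coding and fell in pairs on 4 chromosomes. The minus strand of chromosome 7 holds Nlrp10 (108921852 to 108930178) and Pycard (127989708 to 127993867). The plus strand of chromosome 9 holds Casp1 (5298517 to 5307265) and Casp4 (5308828 to 5336783) next to each other, followed by Casp12 (5345430 to 5373032). On chromosome 11, both on the plus strand, lie Nlrp3 (59541568 to 59566956) and Gsdma (98664351 to 98677708). Chromosome 15 holds Gsdmc (63775968 to 63808759, minus strand) and Gsdmd (75862327 to 75867408, plus strand). Pycard shares 485 exonic bases with the opposite-strand gene Gm45205, and since the strand setting of the counting is not given in the sources used here, reads in those bases cannot be assigned with certainty. Of all stretches of 100 bases in a gene's transcripts, 7.03% for Gsdmc also occur in Gsdmc2, Gsdmc3 or Gsdmc4 and 1.83% for Gsdma also occur in Gsdma2, so some reads could have been counted on either. The relatives were weakly expressed: Gsdmc2 had a mean of 0.93 to 1.56 CPM across the groups, and Gsdma2, Gsdmc3 and Gsdmc4 stayed under 0.2 CPM in every library.

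Promoter windows, from 250 bases before to 50 bases after a RefSeq start site in GRCm38.p6, were in the table used for 4 of the 8 genes. Those of Nlrp3, Casp1 and Casp4 are shown because Nlrp3 had the largest fold change of the 8 with papain on the AhR-poor diet, and because Casp1 and Casp4 are neighbours with different papain values. Capitals mark a match to the NF-kappaB consensus.
Nlrp3, chr11:59541319-59541618, plus strand: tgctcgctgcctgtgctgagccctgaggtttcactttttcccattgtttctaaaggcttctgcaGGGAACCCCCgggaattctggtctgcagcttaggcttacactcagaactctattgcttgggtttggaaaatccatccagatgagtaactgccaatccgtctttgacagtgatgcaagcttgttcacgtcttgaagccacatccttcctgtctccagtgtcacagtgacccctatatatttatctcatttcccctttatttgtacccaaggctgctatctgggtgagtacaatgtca
Casp1, chr9:5298267-5298566, plus strand: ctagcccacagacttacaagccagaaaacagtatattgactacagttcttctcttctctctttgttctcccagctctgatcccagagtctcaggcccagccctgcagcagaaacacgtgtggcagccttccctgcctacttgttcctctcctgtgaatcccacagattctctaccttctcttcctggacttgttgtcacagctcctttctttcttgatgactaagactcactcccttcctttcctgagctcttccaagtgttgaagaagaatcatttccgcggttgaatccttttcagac
Casp4, chr9:5308599-5308898, plus strand: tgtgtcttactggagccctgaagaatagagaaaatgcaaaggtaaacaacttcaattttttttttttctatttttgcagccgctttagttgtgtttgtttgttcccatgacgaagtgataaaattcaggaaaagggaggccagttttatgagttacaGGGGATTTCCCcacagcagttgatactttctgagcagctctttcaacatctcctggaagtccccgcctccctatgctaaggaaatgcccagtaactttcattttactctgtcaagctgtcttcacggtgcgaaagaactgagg
The patterns searched on both strands were 5, namely the interferon-stimulated response element as GAAANNGAA, the gamma-activated site as TTCNNNGAA, the AP-1 site as TGANTCA, the core of the AhR element as GCGTG, and the NF-kappaB consensus. Only the last was found, 186 bases before the start in Nlrp3 and 93 bases before the start in Casp4, where the run in capitals holds 2 overlapping matches. A second Nlrp3 window, chr11:59542436-59542735, and those of Casp1 and Pycard held none of the 5 patterns. Of all 32851 promoter windows of the table, 4.51% held the NF-kappaB consensus, 8.56% the interferon-stimulated response element, 8.30% the gamma-activated site, 7.81% the AP-1 site and 32.4% the AhR core. A match describes letters only and says nothing of binding.

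To compare genes, levels were divided by exon length (CPM per kb of annotated exon). In vehicle-treated mice on the I3C diet, Pycard was the most abundant at 49.5 ± 6.08 CPM per kb (SD, n = 4), followed by Casp1 at 26.9 ± 1.74 and Gsdmc at 18.2 ± 8.37. Casp4, Gsdma and Nlrp10 came next at 10.2 ± 4.64, 8.98 ± 3.03 and 7.84 ± 1.30 CPM per kb, with overlap between Casp1 and Gsdmc, Gsdmc and Casp4, Casp4 and Gsdma, and Gsdma and Nlrp10. Nlrp3 and Gsdmd were lowest at 1.11 ± 0.387 and 1.09 ± 0.157 CPM per kb, and their libraries overlapped. After papain on the AhR-poor diet the order was different: Gsdmc led at 100.96 ± 15.3 CPM per kb with no overlap with Pycard at 43.1 ± 6.01, Nlrp3 followed at 25.3 ± 17.3, and Nlrp10 was last at 2.84 ± 0.587. Nlrp3 overlapped Pycard above it and Gsdma below it in that group. On the I3C diet with papain, Gsdmc again led at 129 ± 27.1 CPM per kb, and Nlrp3 stood next to last at 1.58 ± 0.852.

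**Figure D1:**
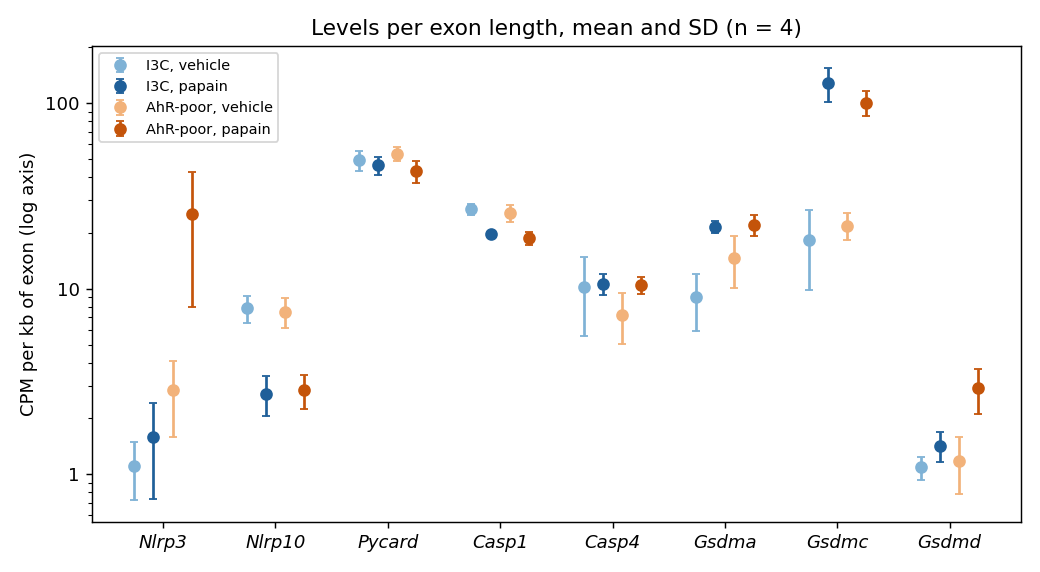
Levels of the 8 genes per kb of annotated exon (CPM per kb, log axis) in the 4 groups, as mean and SD of 4 libraries. Gsdmc passes Pycard in both papain groups, and Nlrp3 lies above 5 CPM per kb only in the papain group of the AhR-poor diet.

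Papain was compared with vehicle within each diet, and the diets were compared within each treatment, so these 4 comparisons share groups. With papain on the AhR-poor diet, Nlrp3, Gsdmc and Gsdmd rose and Nlrp10 fell, so 3 of the 8 genes were called higher and 1 lower, against 6.04% and 2.42% of all 22155 genes tested. On the I3C diet, Gsdmc and Gsdma rose and Nlrp10 fell, so 2 were called higher and 1 lower, against 3.69% and 5.29% of all genes. With vehicle, edgeR called 0 of the 8 between the diets, DESeq2 also called 0, and 2 (Nlrp3 and Gsdma) had an unadjusted p below 0.05, both in favour of the AhR-poor diet. Over all genes in that comparison 1.59% were called higher on the AhR-poor diet and 0% lower, where 785 had an unadjusted p below 0.05 and DESeq2 called 6. With papain, Nlrp3 and Gsdmd were called higher on the AhR-poor diet and edgeR and DESeq2 called 0 lower, with 0 at an unadjusted p below 0.05, against 7.15% of all genes higher and 0.0993% lower. The median log2 fold change of the 8 genes was 0.56 and 0.22 for the papain responses (AhR-poor, then I3C) and 0.11 and 0.01 for the diet comparisons (vehicle, then papain), where the medians over all genes were -0.004, -0.04, -0.01 and 0.01.

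**Figure D2:**
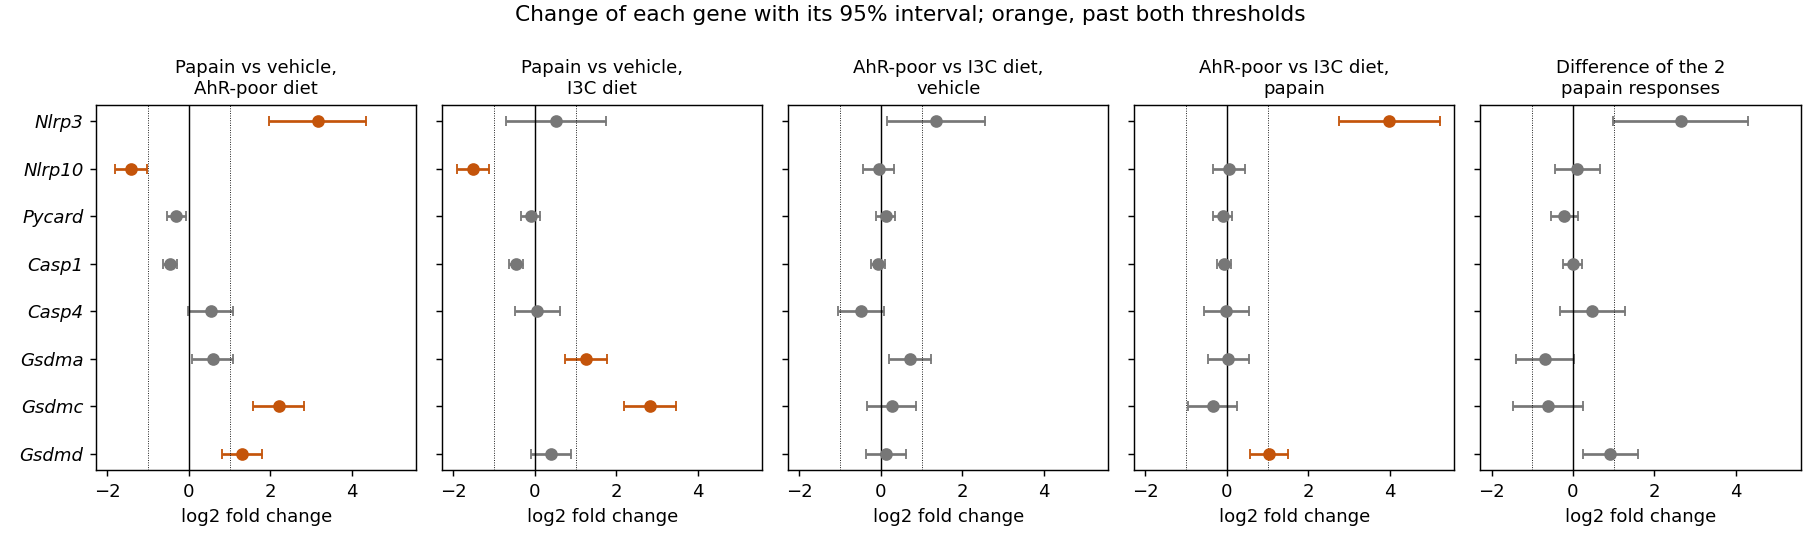
Log2 fold change of each gene with its 95% confidence interval in the 4 comparisons, and in the last panel the difference between the papain responses (AhR-poor minus I3C). Orange points passed both thresholds, dotted lines mark a log2 fold change of 1 in either direction, and Nlrp10 and Gsdmc are orange in both papain comparisons.

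Nlrp3 encodes the sensor of the best studied inflammasome, which responds to potassium loss and membrane damage. Its levels were 2.61, 5.46, 3.89 and 6.09 CPM in vehicle-treated mice on the I3C diet and 11.5, 5.19, 5.39 and 3.63 CPM with papain. On the AhR-poor diet they were 7.06, 11.8, 8.70 and 18.4 CPM with vehicle and 91.0, 198, 92.4 and 28.9 CPM with papain. All 4 AhR-poor papain libraries therefore lay above all other 12, whereas the I3C papain libraries overlapped both vehicle groups. Papain raised Nlrp3 by 3.16 ± 0.55 on the log2 scale (SE, n = 4 per group) on the AhR-poor diet, 8.93-fold between group means (edgeR adjusted p = 0.000557, exact permutation p = 0.0286). That p is the smallest that 4 against 4 libraries can give, and all permutation tests were two-sided. With I3C in the diet the difference was 0.52 ± 0.57 (adjusted p = 0.532), with a 95% interval from -0.71 to 1.74. Between the diets Nlrp3 was 15.96-fold higher without added I3C when papain was given, a log2 difference of 3.99 ± 0.57 (adjusted p = 0.000276). With vehicle the diets differed by 1.35 ± 0.56 without overlap of the libraries (exact permutation p = 0.0286), yet the adjusted p over all genes was 0.319.

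The largest and smallest Nlrp3 values after papain on the AhR-poor diet came from the libraries that also had the most and least Csf3r, the receptor gene for granulocyte colony-stimulating factor and a neutrophil marker. Csf3r stood at 55.6, 107.03, 56.8 and 11.9 CPM in the same order of libraries, at 2.29, 0.513, 0.0285 and 0.124 CPM after papain on the I3C diet, and at or under 0.763 CPM in every vehicle library. Over the list of 10 neutrophil markers, 8 rose with papain on the AhR-poor diet, and their summed level was 123 to 578 CPM against 83.4 to 101.9 CPM with vehicle. Of the same 10 markers 2 rose (Cxcr2 and Mmp9) and 1 fell (Il1r2) on the I3C diet. Cxcr2 went from 0.705 ± 0.207 to 24.2 ± 4.25 CPM with papain on the I3C diet (SD, n = 4). On the AhR-poor diet Cxcr2 went from 1.15 ± 0.538 to 34.3 ± 8.70 CPM. The I3C sums of the list were 46.9 to 75.5 CPM with papain and 55.3 to 77.8 CPM with vehicle. The defining marker Ly6g was at 0 in all libraries outside the AhR-poor papain group. The mean log2 level of the list, which gives weak markers equal weight, was -2.32 to -0.04 with papain and -3.91 to -3.02 with vehicle on the I3C diet, without overlap. Macrophage markers moved similarly (7 of 10 rose with papain on the AhR-poor diet and 2 on the I3C diet), with sums of 86.5 to 275 CPM in the AhR-poor papain group, 50.7 to 61.2 CPM in AhR-poor vehicle, and 11.5 to 35.6 CPM over the I3C libraries. All 8 dermal fibroblast markers also rose with papain on the AhR-poor diet, where they summed to 268 to 689 CPM against 101.1 to 182 CPM with vehicle, while all I3C libraries were at or under 13.4 CPM. The match of the extreme libraries was not particular to Csf3r. In the AhR-poor papain group the mean log2 levels of the macrophage and fibroblast lists were also highest in T105 (3.57 and 5.89) and lowest in T112 (2.14 and 4.43). In bulk epidermal cells, more cells of a type and more RNA per cell cannot be told apart. With the mean log2 level of the neutrophil markers as a covariate, the Nlrp3 change with papain on the AhR-poor diet was -0.56, and with the fibroblast markers it was 1.57. The Nlrp3 difference between the diets with papain was 0.25 with the neutrophil and -0.48 with the fibroblast covariate, and none of these 4 values was called. The neutrophil covariate ran from 1.78 to 4.34 in the AhR-poor papain libraries and from -1.50 to -0.93 in the AhR-poor vehicle libraries, so within that diet it separates the same libraries as the treatment. In the I3C papain libraries it ran from -2.32 to -0.04, so with papain it also separates the same libraries as the diet. The fibroblast covariate ran from 4.43 to 5.89 in AhR-poor papain, 2.60 to 3.63 in AhR-poor vehicle and -3.19 to -0.65 in the I3C libraries. It thus separates the same libraries as the diet, and on the AhR-poor diet also the same libraries as the treatment.

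**Figure D3:**
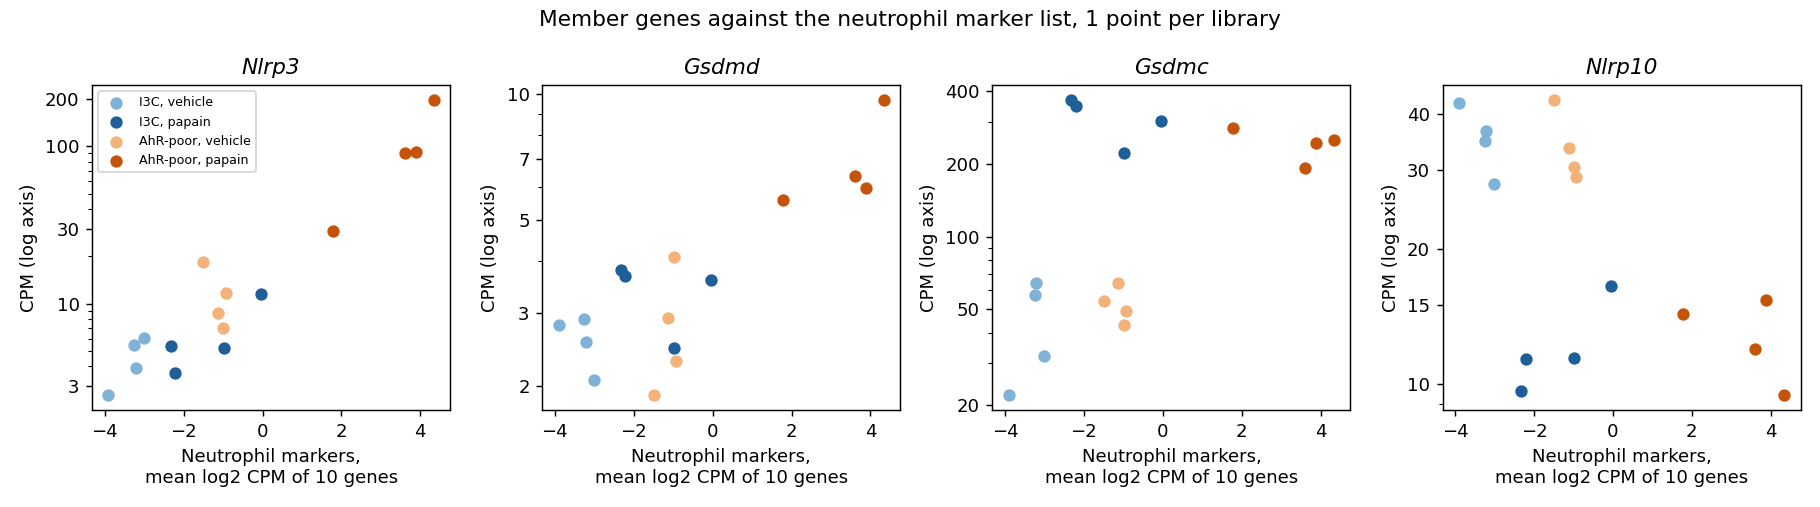
CPM of 4 genes (log axes) against the mean log2 CPM of the 10 neutrophil markers, with 1 point for each of the 16 libraries. Nlrp3 and Gsdmd are highest where the markers are highest (library T105, 198 and 9.71 CPM), whereas Gsdmc is as high in I3C papain libraries with marker means near -2 as in AhR-poor papain libraries.

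Nlrp10 encodes a member of the same family that lacks the leucine-rich repeats of other NLR proteins. It went the other way from Nlrp3. Vehicle-treated mice on the I3C diet had 42.1, 34.7, 36.5 and 27.9 CPM and papain-treated mice had 16.5, 11.4, 9.65 and 11.4 CPM. The AhR-poor values were 30.3, 28.8, 33.5 and 42.9 CPM with vehicle and 11.97, 9.43, 15.4 and 14.3 CPM with papain. Every papain library lay below every vehicle library, whatever the diet. The log2 fold change was -1.42 ± 0.19 on the AhR-poor diet (adjusted p = 1.97e-05) and -1.53 ± 0.19 on the I3C diet (adjusted p = 6.15e-06), and the exact permutation p was 0.0286 in both. Between the diets the difference was -0.06 ± 0.18 with vehicle and 0.05 ± 0.19 with papain, with 95% intervals from -0.44 to 0.32 and from -0.34 to 0.44. The sum of the keratinocyte markers overlapped between vehicle and papain on the AhR-poor diet (48584 to 60901 and 37139 to 50390 CPM) and did not on the I3C diet (51157 to 56352 and 43855 to 49531 CPM), and its part in the Nlrp10 result was not tested. With the neutrophil covariate the Nlrp10 change was -1.40 on the AhR-poor diet, no longer called, and -1.52 on the I3C diet, still called.

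Pycard encodes ASC, the shared adaptor between sensors and caspase-1, and it was the most abundant of the 8 in raw terms in vehicle-treated skin. Its levels on the I3C diet were 165, 198, 216 and 173 CPM with vehicle and 187, 147, 187 and 182 CPM with papain. On the AhR-poor diet they were 179.5, 198, 222 and 214 CPM with vehicle and 134, 176, 159 and 186 CPM with papain. The groups overlapped in all 4 comparisons and none was called. The log2 difference with papain was -0.31 ± 0.11 on the AhR-poor diet (adjusted p = 0.0358) and -0.10 ± 0.11 on the I3C diet (adjusted p = 0.536), and the 95% intervals reached no lower than -0.54 and -0.33.

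Casp1 encodes the caspase that the adaptor recruits. Its I3C libraries read 39.8, 39.1, 44.0 and 38.1 CPM with vehicle and 29.2, 29.7, 29.7 and 28.9 CPM with papain. The AhR-poor libraries read 33.7, 36.8, 40.2 and 43.2 CPM with vehicle and 24.8, 28.5, 28.9 and 29.6 CPM with papain. All 8 papain libraries lay below all 8 vehicle libraries. The log2 difference was -0.46 ± 0.08 on the AhR-poor diet (adjusted p = 0.000218) and -0.45 ± 0.08 on the I3C diet (adjusted p = 0.000216), each with an exact permutation p of 0.0286, so Casp1 passed the p threshold in both but not the fold threshold. Under the p threshold alone, 10.1% and 12.9% of all genes were lower with papain in the AhR-poor and I3C comparisons. The diets differed by -0.06 ± 0.08 with vehicle and -0.07 ± 0.08 with papain, with 95% intervals within -0.25 to 0.11.

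Casp4 encodes caspase-11. Vehicle-treated mice had 62.7, 27.1, 25.6 and 35.6 CPM on the I3C diet, and 38.5, 19.4, 23.5 and 26.0 CPM in the AhR-poor group. With papain the values were 34.6, 35.8, 45.6 and 41.2 CPM on the I3C diet and 43.5, 40.7, 37.4 and 33.99 CPM on the AhR-poor diet. The vehicle libraries spread widely, from 19.4 to 62.7 CPM, and every comparison overlapped. Papain differed from vehicle by 0.54 ± 0.26 on the AhR-poor diet (adjusted p = 0.135) and by 0.06 ± 0.26 on the I3C diet (adjusted p = 0.896). Casp12, the next gene along the chromosome and an inflammatory caspase gene with a debated role, rose from 8.23 ± 2.08 to 31.0 ± 3.11 CPM on the I3C diet (SD, n = 4, log2 1.91 ± 0.19, edgeR adjusted p = 4.53e-07). With the AhR-poor diet it rose from 5.56 ± 0.692 to 21.2 ± 5.32 CPM (log2 1.93 ± 0.19, edgeR adjusted p = 9.94e-07). When I3C was fed, the papain values of the adjoining Casp1, Casp4 and Casp12 were thus -0.45, 0.06 and 1.91 in log2, of which Casp12 alone was called.

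Gsdma encodes gasdermin A, an epithelial gasdermin known to be cut by a streptococcal protease. I3C-fed mice had 13.8, 23.4, 33.5 and 27.3 CPM with vehicle and 62.7, 60.9, 59.5 and 52.4 CPM with papain. In AhR-poor mice it measured 29.3, 30.9, 44.4 and 55.9 CPM with vehicle and 50.3, 57.5, 66.4 and 66.4 CPM with papain. The papain groups covered nearly the same range, while the vehicle level of the AhR-poor diet (40.1 ± 12.5 CPM, SD, n = 4) was above that of the I3C diet (24.5 ± 8.25 CPM) with overlap. Papain raised Gsdma on the I3C diet by 1.27 ± 0.24 (adjusted p = 0.000722, no overlap). On the AhR-poor diet the difference was 0.58 ± 0.24 (adjusted p = 0.0725, with overlap), and between the diets with vehicle it was 0.71 ± 0.24 (adjusted p = 0.169). The papain responses differed by -0.68 ± 0.33 (adjusted p = 0.390), so a difference between the diets was not shown. With the neutrophil covariate the I3C response was 1.24 and no longer called.

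Gsdmc encodes gasdermin C, known to be cleaved by caspase-8. It rose most in absolute terms. Its levels were 22.0, 57.3, 64.3 and 31.97 CPM with vehicle and 301, 222, 369 and 347 CPM with papain on the I3C diet. On the AhR-poor diet they were 43.1, 49.3, 64.0 and 54.4 CPM with vehicle and 193, 251, 245 and 282 CPM with papain. No vehicle library of either diet reached 65 CPM and no papain library fell below 190 CPM. Group means rose 7.06-fold on the I3C diet, a log2 fold change of 2.82 ± 0.30 (adjusted p = 4.64e-06). They rose 4.61-fold on the AhR-poor diet, where the log2 fold change was 2.203 ± 0.29 (adjusted p = 5.01e-05). The diets differed by 0.26 ± 0.28 with vehicle and -0.35 ± 0.28 with papain, and the latter interval ran from -0.95 to 0.25. On the I3C diet the Gsdmc change stayed called with the neutrophil covariate (2.97) and with the fibroblast covariate (2.74). On the AhR-poor diet it was 2.58 and no longer called with the neutrophil covariate.

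Gsdmd encodes gasdermin D, the pore-forming substrate of caspase-1 and caspase-11. It was weakly expressed, with 69 to 512 counts per library. The I3C libraries had 2.81, 2.91, 2.56 and 2.07 CPM with vehicle and 3.60, 2.47, 3.80 and 3.68 CPM with papain. The AhR-poor libraries had 4.09, 2.30, 2.92 and 1.90 CPM with vehicle and 6.38, 9.71, 5.97 and 5.60 CPM with papain. As for Nlrp3, the 4 AhR-poor papain libraries were above all others, with library T105 highest for both genes. Papain raised Gsdmd by 1.31 ± 0.23 on the AhR-poor diet (adjusted p = 0.000205). With I3C fed, the difference was 0.39 ± 0.23 (adjusted p = 0.215). Between the diets with papain Gsdmd was higher by 1.03 ± 0.23 on the AhR-poor diet (adjusted p = 0.00313), a difference close to the fold threshold that fell to 0.92 without I3C papain library T113 and to 0.80 without AhR-poor papain library T105, neither of which was called. With the neutrophil covariate both Gsdmd differences lost the call (0.89 for papain on the AhR-poor diet, 0.58 between the diets).

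**Figure D4:**
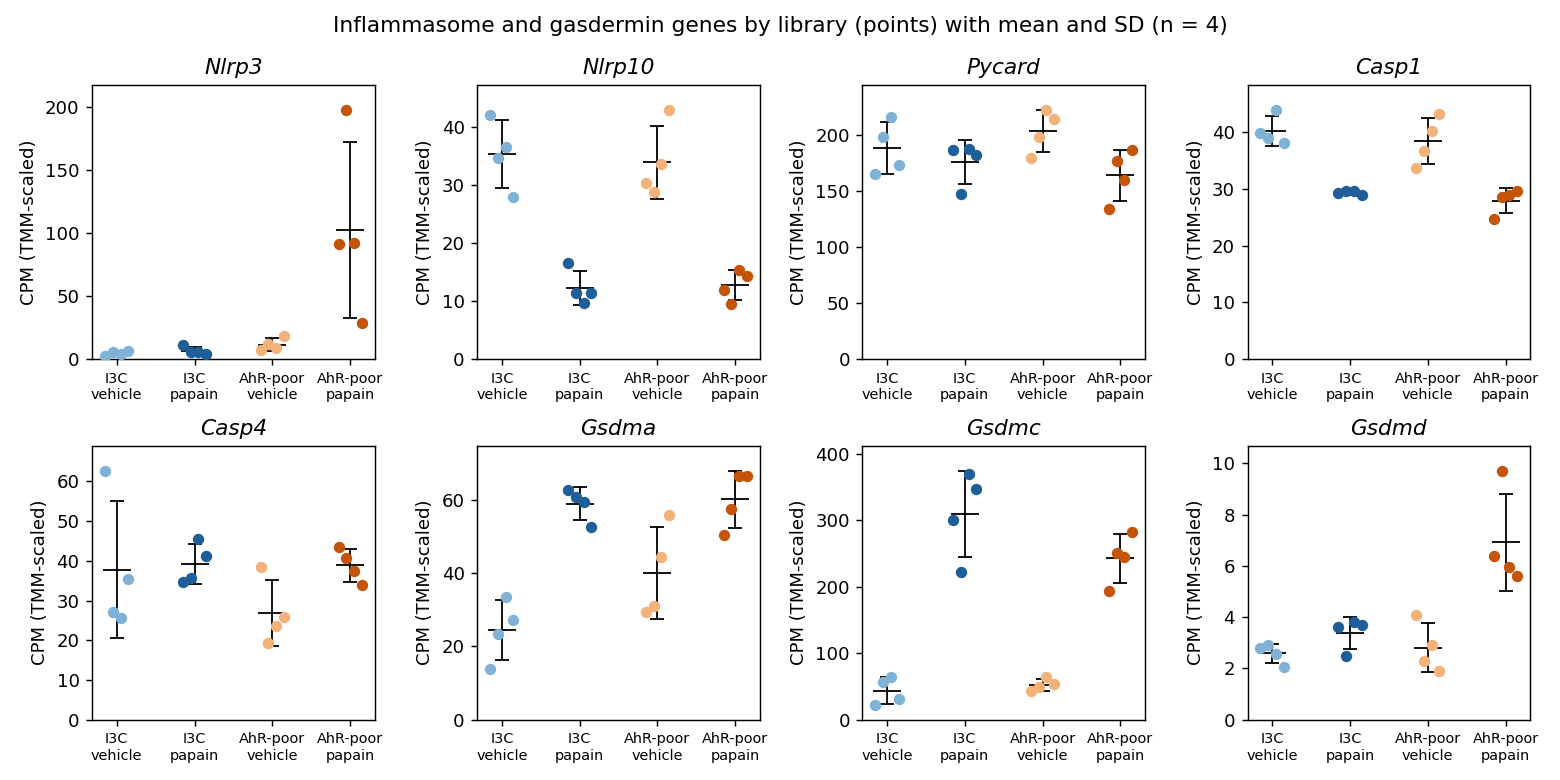
CPM of the 8 genes in each of the 16 libraries (points) with the mean and SD of each group (n = 4), on axes that start at 0. Nlrp10 and Casp1 are lower in all papain libraries on both diets, Gsdmc is higher in all of them, and Nlrp3 and Gsdmd are highest in the 4 papain libraries of the AhR-poor diet.

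Whether the papain response differed between the diets was tested as an interaction. edgeR called 0 of the 8 genes and DESeq2 called 0, while 2 had an unadjusted p below 0.05, and 0.0181% of all genes were called. Over all genes edgeR called 4 for the interaction, and DESeq2 called 200 positive and 5 negative. For Nlrp3 the response on the AhR-poor diet exceeded that on the I3C diet by 2.64 ± 0.77 on the log2 scale (edgeR adjusted p = 0.183), with a 95% interval from 0.98 to 4.31. For Gsdmd the excess was 0.92 ± 0.33 (adjusted p = 0.246), with an interval from 0.23 to 1.60. The 2 genes called in both papain comparisons in the same direction had interaction values of 0.11 ± 0.26 (Nlrp10) and -0.61 ± 0.40 (Gsdmc), with intervals from -0.44 to 0.66 and from -1.46 to 0.24. For Casp1 the interval was narrow, from -0.25 to 0.23.

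The other genes of the pathway came from a list of 52, of which 50 were in the table and 49 were tested. With papain on the AhR-poor diet 17 rose, and 0 fell by edgeR or DESeq2 with 4 lower at an unadjusted p below 0.05. Over all genes 6.04% were called higher and 2.42% lower. On the I3C diet 8 rose and 3 fell, against 3.69% and 5.29% of all genes. Those that fell were Irf1, P2rx7 and Txnip, of which P2rx7 and Txnip are named because so few fell, after their values were seen. Between the diets with vehicle edgeR called 0, with 14 higher and 3 lower at an unadjusted p below 0.05, and DESeq2 called 2 (Il1b and Mefv). Of all genes edgeR called 1.59% higher on the AhR-poor diet with vehicle. With papain 13 were higher in AhR-poor mice, and 0 were lower by edgeR or DESeq2 with 8 lower at an unadjusted p below 0.05. The shares over all genes were 7.15% higher and 0.0993% lower. With the neutrophil covariate the 17 and 13 calls became 3 and 0, with the fibroblast covariate 9 and 0, and with 10 counts required of every library 10 and 4. How many of all genes stayed called under these settings was not counted. The marker levels that moved with these groups are those given beside Nlrp3. The interaction called 0, with 10 positive and 4 negative values at an unadjusted p below 0.05, and DESeq2 called 1, Il1rn. The median log2 fold change of the 49 genes was 0.74 for papain in AhR-poor mice and 0.44 in I3C mice, the latter 0.31 with 6 genes near the counting floor set to their bound, and between the diets it was 0.06 with vehicle and 0.72 with papain.

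Among the 11 other sensor genes tested, 5 rose with papain on the AhR-poor diet, and 7 were called higher between the diets when papain was given. The shares over all genes were 6.04% and 7.15%. For papain on the I3C diet edgeR called 0 of the 11, with 3 higher and 1 lower at an unadjusted p below 0.05, and DESeq2 called 2 as higher (Ifi204 and Mefv). Mefv, which encodes pyrin, was at 16.5, 37.4, 15.2 and 5.79 CPM after papain on the AhR-poor diet and at 1.24 CPM or less in every other library, a log2 fold change of 6.04 ± 0.90 over vehicle (adjusted p = 0.000412). Ifi204, a member of the interferon-inducible DNA-sensor family, reached 31.2, 60.5, 22.0 and 9.41 CPM there and 1.83 CPM at most elsewhere (5.98 ± 0.70, adjusted p = 1.96e-05). Within the AhR-poor papain group, library T105 was highest and T112 lowest for Nlrp3, Mefv and Ifi204 alike. The same 2 libraries were the extremes for Csf3r and for the mean levels of the macrophage and fibroblast markers. Naip5, a sensor of bacterial flagellin, rose by 1.62 ± 0.29 on the AhR-poor diet. Aim2, which encodes a cytosolic DNA sensor, differed by 1.88 ± 0.30 between the diets with papain, with 2.12 ± 0.586 CPM in AhR-poor and 0.578 ± 0.282 CPM in I3C mice (SD, n = 4).

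Among the 5 cytokine and antagonist genes, Il1b rose on both diets. It went from 2.57 ± 0.557 to 233 ± 152 CPM in AhR-poor mice (log2 6.50 ± 0.74) and from 0.378 ± 0.267 to 6.15 ± 5.97 CPM in I3C mice (log2 4.04 ± 0.93). After papain it was at 223, 431, 219.9 and 59.7 CPM in the AhR-poor libraries, again highest in T105 and lowest in T112. Il18bp, which encodes a soluble antagonist of IL-18, rose by 1.41 ± 0.24 in AhR-poor mice and 1.46 ± 0.24 in I3C mice. Il1rn, the gene of the IL-1 receptor antagonist, had 104.3 ± 53.5 CPM in AhR-poor and 28.9 ± 9.73 CPM in I3C mice after papain, a log2 difference of 1.85 ± 0.33 (adjusted p = 0.00145).

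Of the 11 licensing factors and regulators, 4 rose on both diets, against 6.04% (AhR-poor) and 3.69% (I3C) of all genes called higher. These were the guanylate-binding protein genes Gbp2, Gbp3, Gbp5 and Gbp7, whose products help caspase-11 reach bacterial lipopolysaccharide. Gbp5 is named to complete the count, after its values were seen. On the I3C diet Gbp5 was near the counting floor, with 3 counts or fewer in every vehicle library. Its levels there were 0.0219 ± 0.0276 CPM with vehicle and 0.210 ± 0.0907 CPM with papain (SD, n = 4). Gbp2 increased by 3.81 ± 0.53 on the AhR-poor and 2.66 ± 0.53 on the I3C diet, Gbp3 by 3.94 ± 0.41 and 3.36 ± 0.50, and Gbp7 by 3.04 ± 0.41 and 2.56 ± 0.41. Irf1, an interferon-induced transcription factor gene, fell by 1.90 on the log2 scale on the I3C diet (SE 0.34, adjusted p = 0.000507) and differed by -0.87 ± 0.33 on the AhR-poor diet (adjusted p = 0.0563). P2rx7, the gene of an ATP-gated channel upstream of NLRP3, fell by 1.24 on the log2 scale on the I3C diet and had a value of -0.92 ± 0.12 on the AhR-poor diet, just short of the fold threshold. Txnip, whose product binds thioredoxin, fell by 1.15 on the I3C diet and had a value of -0.44 ± 0.12 on the AhR-poor diet.

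Of the 9 inhibitor genes tested, Serpinb1a, a protease inhibitor gene known to restrain inflammatory caspases, rose from 13.6 ± 1.27 to 131 ± 8.14 CPM in AhR-poor mice (log2 3.27 ± 0.15) and from 14.5 ± 1.83 to 190 ± 46.9 CPM in I3C mice (log2 3.71 ± 0.15). Trim30a, whose product is known to restrain NLRP3 activation in mouse cells, rose by 4.79 ± 0.49 on the AhR-poor diet and had a value of 2.14 ± 0.59 on the I3C diet (adjusted p = 0.01003), where it was not called. Of the 8 other gasdermin and membrane-rupture genes, Gsdma3 alone was called, with papain on the AhR-poor diet (1.18 ± 0.24), and it is named because it was the only one, after its value was seen.

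**Figure D5:**
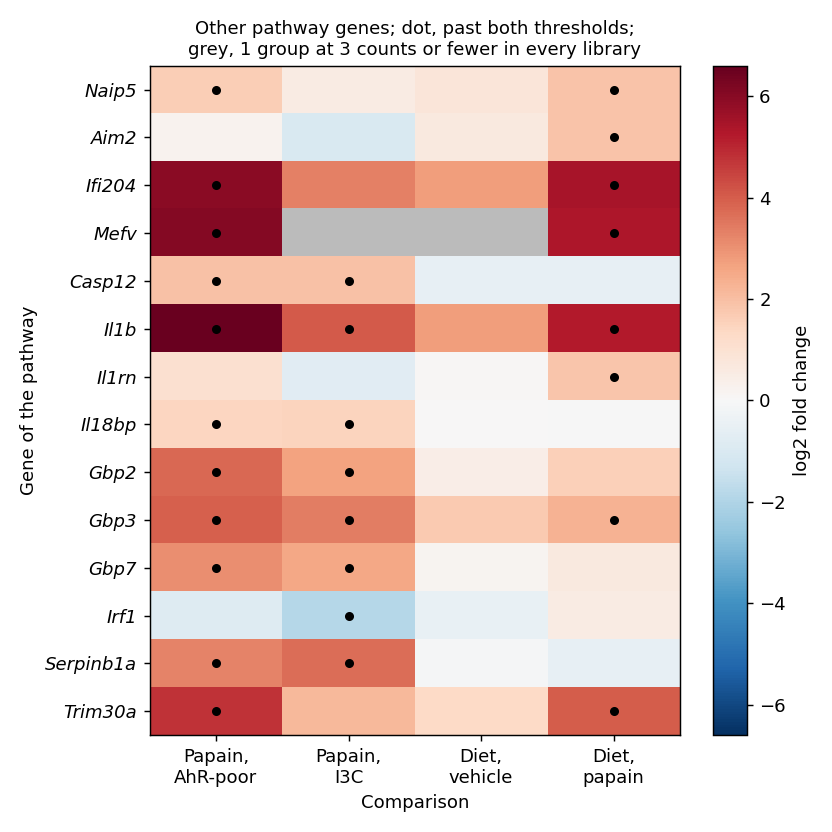
Log2 fold changes (colour) of the pathway genes outside the 8 that the naming rule picked, in the 4 comparisons, with dots where both thresholds were passed and grey where every library of 1 group had 3 counts or fewer. Casp12, Il18bp, Serpinb1a, Gbp2, Gbp3, Gbp7 and Il1b have dots in both papain columns, and none has a dot between the diets with vehicle.

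The genes whose pattern over the 16 libraries was closest to each of the 8 were found among 13026 genes, by the root mean square difference of centred log2 CPM. For Nlrp3, whose own spread was 1.80, these were Slc15a3 at 0.30, the neutrophil chemokine gene Cxcl2 at 0.34 and Clec7a, the gene of the fungal receptor dectin-1, at 0.38. For Gsdmd (spread 0.63) they were Il10rb at 0.23, B2m at 0.25 and Rab20 at 0.28. For Gsdmc (spread 1.35) they were Ddr2 at 0.26, Samhd1 at 0.29 and Stfa1 at 0.33. Nlrp10 (spread 0.78) was nearest to Fam214a at 0.18, Cyp2j9 at 0.22 and Cib2 at 0.22. For Gsdma (spread 0.64) the nearest was Rbp2 at 0.18, for Casp4 (0.41) Eif1a at 0.16, for Casp1 (0.25) Ctdspl at 0.08 and for Pycard (0.19) Dusp22 at 0.07. All these values are descriptions over 16 libraries that share the group structure, so a gene can score near largely through similar group means. Differences between the libraries of a group also enter the score.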

How the data were processed

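RNA was sequenced from footpad epidermal cells of 16 mice with the TruSeq Stranded mRNA kit. According to the study's methods and the submitters' processing notes, the authors checked reads with FastQC, aligned them with STAR to mm10 and tested with DESeq2. The authors deposited raw read counts per gene and library, without normalization. The counting tool, annotation release and strand setting are not given in the sources used here. Of 50600 identifiers, 50376 matched a GENCODE M21 symbol. Replicates are separate mice, grouped by their labels, and library totals ran from 22500821 to 51844375.

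The 22155 genes whose counts over all libraries reached 10 were tested with the robust quasi-likelihood F test of edgeR 4.0.16 (R 4.3.3) with TMM factors and 1 mean per group over 16 libraries. Adjusted p-values are Benjamini-Hochberg values over all these genes. The model was checked on simulated counts. Single genes were also compared by two-sided exact permutation tests of log2 CPM (prior count 0.5), which compare 4 with 4 libraries and cannot go below p = 0.0286. Where every library of a group had 3 counts or fewer, no fitted fold is printed. The depth gave the 8 genes at least 69 counts per library, and SDs and SEs cover mouse-to-mouse spread and counting error together.

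The members, the pathway list and the marker lists were chosen with earlier results of these data known. All 8 members are named. Of the other pathway genes, those called and averaging at least 1 CPM are named, at most 8 per comparison by size of change, except where the text says otherwise. The marker lists covered keratinocytes, Langerhans cells, neutrophils, macrophages, T cells, fibroblasts, endothelial cells, sebaceous gland and hair follicle, and melanocytes. Scaling (RLE or totals alone), the filter (filterByExpr, 10 counts required of each library, or 1 count), the tool (DESeq2 1.42.0), the fitted libraries (the 8 at issue, or all but 1), the thresholds (0.05, or any fold) and a covariate (mean log2 CPM of neutrophil or fibroblast markers) were varied in turn. Promoter windows are RefSeq's (GRCm38.p6). Promoters of Nlrp10, Gsdma, Gsdmc and Gsdmd and all protein sequences were not used here. The study's differential expression tables were not used. One result of the pathway list is not reported here.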

Additional observations from a re-analysis of the deposited data

Results flagged for a closer look

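A single library stood apart from the other 3 of its group in 2 of the 32 sets of 4 libraries examined for the 8 genes, and chance marks about 1 set in 20. Both were I3C papain library T113. Its Pycard level was 147 CPM, with the next library at 182 CPM, and its Gsdmd level was 2.47 CPM, with the next at 3.60 CPM. Pycard was not called with or without T113. Gsdmd was called higher on the AhR-poor diet with papain (log2 difference 1.03), and was 0.92 and not called without T113.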

How the results depend on the processing

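Each member comparison was recomputed under 27 alternatives and each interaction under 26. Of the 9 called member changes, Nlrp10 and Gsdmc on the I3C diet kept the call under all 27. With the neutrophil markers as a covariate the members called went to 0 for papain on the AhR-poor diet and to 0 for the diets with papain, and the pathway genes called to 3 and 0. With the fibroblast markers they went to 2 (Gsdmc and Nlrp10) and 0, and the pathway genes to 9 and 0. Nlrp3 changed sign to -0.56 (papain, AhR-poor diet, neutrophil covariate) and to -0.48 (diets with papain, fibroblast covariate). Gsdma on the I3C diet lost its call with the neutrophil covariate (1.24). The neutrophil covariate separates papain from vehicle libraries within each diet, and with papain also the diets. On the I3C diet it ran from -2.32 to -0.04 with papain and from -3.91 to -3.02 with vehicle. The fibroblast covariate separates the diets, and on the AhR-poor diet also papain from vehicle libraries. The cause of these changes was not tested. Leaving out 1 library gave 1 to 2 members called between the diets with papain, with Nlrp3 kept and Gsdmd lost without T113 or T105, and cost no other member call. Requiring 10 counts in every library left 32 pathway genes to test, of which 10 were called for papain on the AhR-poor diet and 4 for the diets with papain. For the diets with vehicle, pathway calls went from 0 to 1 at an adjusted p below 0.05, to 3 with only the 8 libraries and to 2 with DESeq2. Casp1 passed in both papain comparisons without a minimum fold. Of the 40 member results 9 were called, and among the uncalled rest 14 changed sign under at least 1 alternative. No paired analysis was possible because no replicate code occurs in more than 1 group. Gsdmd (69 counts at the lowest) and Nlrp3 (91) were the members with the least depth.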

Other observations

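The remaining marker lists are given here. Of 6 endothelial markers, Cdh5 rose with papain on the AhR-poor diet. All 6 endothelial markers were called higher in AhR-poor mice, with vehicle and with papain, and summed to 11.5 to 27.6 CPM and 19.3 to 50.04 CPM in those groups against at most 2.91 CPM in any I3C library. All 8 fibroblast markers were likewise called between the diets with both treatments, and 4 of 10 macrophage markers with vehicle and 9 with papain. Of 10 neutrophil markers, edgeR called 0 between the diets with vehicle and 6 higher on the AhR-poor diet with papain. The shares over all genes were 1.59% and 7.15% higher. With vehicle the median log2 difference of the 10 was nevertheless 3.72. Their sums did not overlap there, at 83.4 to 101.9 CPM on the AhR-poor and 55.3 to 77.8 CPM on the I3C diet. Melanocyte markers were called higher on the AhR-poor diet for 2 of 5 with vehicle and 5 with papain. Of 5 Langerhans cell markers, Ccl22 alone was called, higher with papain on both diets, and edgeR called 0 between the diets. Cd207 went from 55.2 ± 8.54 to 33.7 ± 5.53 CPM with papain on the AhR-poor diet (SD, n = 4). On the I3C diet Cd207 went from 17.9 ± 5.77 to 13.9 ± 8.47 CPM, with overlap. The list summed to 599 to 680 CPM on the AhR-poor and 277 to 484 CPM on the I3C diet with vehicle. With papain the sums were 664 to 819 CPM and 311 to 564 CPM. Of 6 T cell markers, Thy1 rose with papain on the AhR-poor diet, where Cd3d was also higher than on the I3C diet with papain. Of 7 sebaceous and hair follicle markers, Krt15 fell with papain on both diets and Scd1 was higher on the AhR-poor diet with both treatments. Their part in the results of the 8 genes was not tested, apart from the neutrophil and fibroblast lists used as covariates.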
